A study of Mus musculus with 6 samples.

Results

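Muc5b+ airway secretory cells were examined in single-cell RNA-Seq libraries of CD45- mouse lung cells, made by the 10x Genomics 3′ method, in which each transcript molecule carries a unique molecular identifier (UMI). Cells were chosen by their own counts: a cell was called Muc5b+ when its barcode had at least 3 UMIs of Muc5b and 0 UMIs of Foxj1, Lamp3, Ptprc, Cdh5, and Col1a2, which mark ciliated cells, type 2 alveolar epithelial cells (AEC2s), immune cells, endothelial cells, and fibroblasts. This gave 166 cells of 33798 kept barcodes (0.491%), with 21, 19, 37, and 20 in control replicates 1 to 4 and 46 and 23 in replicates 1 and 2 labelled Zip8 knockout. A barcode was kept with at least 1000 genes, at least 2000 UMIs, and under 15% mitochondrial UMIs, unless another library held the same barcode with at least 5 times the UMIs.

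The mice were labelled C57BL/6 (backcrossed to C57BL/6J by the study's methods), were 10 to 12 weeks old, and were taken 2 weeks after 4 doses of tamoxifen. By the study's methods, the animals labelled Zip8 knockout carried SFTPC-CreER, Rosa26-tdTomato, and Zip8 fl/fl, and the 4 control libraries came from littermates, whose alleles the sources used here do not state for these libraries. For organoid cultures, the methods name mice with SFTPC-CreER and Rosa-Tomato fl/fl, without floxed Slc39a8, beside the deleted ones. The Cre was driven by the SFTPC promoter, which is used to reach AEC2s, and airway secretory cells are not its intended target. How many mice went into a library, and whether replicates were separate preparations, is not given, so p-values measure only the spread between these samples. The libraries held 93852253 to 118771907 UMIs, and the Muc5b+ cells gave 716913, 992077, 1952454, and 825208 UMIs in the controls and 2081568 and 1436072 in the others. Levels below are counts per 1000000 (CPM) of the UMIs summed over the cells of 1 library, and n counts libraries.

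Airway secretory cells line the conducting airways between ciliated cells. Club cells release Scgb1a1 and carry cytochrome P450 enzymes, and goblet or mucous cells package gel-forming mucins, of which Muc5b is the main one in the healthy mouse airway and is needed for mucociliary clearance. Tff2 is a trefoil peptide released with mucus, Scgb3a1 a small secretoglobin typical of the proximal airway, and Bpifa1 (SPLUNC1) a secreted host defense protein of the upper airway.

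The Muc5b+ cells carried the other genes that name them. Their depth was high, with a median of 46999.5 UMIs per cell (range 7311 to 141583), and Muc5b itself was found at a median of 33 UMIs per cell (range 3 to 230). At the edge of the rule, 14 cells had 3 Muc5b UMIs and 10 had 4, and 17 barcodes that met every other condition had 2. Muc5b (ENSMUSG00000066108, chr7:141839070-141873084, plus strand of GRCm38) was at 709, 751, 1028, and 737 CPM in control replicates 1 to 4 and 1042 and 712 CPM in replicates 1 and 2 labelled Zip8 knockout. All 6 values lay between 709 and 1042 CPM, and the order of the libraries did not follow their labels. Tff2 (ENSMUSG00000024028, chr17:31141049-31144282, minus strand) was at 685, 1226, 1097, and 882 CPM in control replicates 1 to 4 and 1258 and 1069 CPM in replicates 1 and 2 labelled Zip8 knockout. Scgb3a1 (ENSMUSG00000064057, chr11:49663610-49665118, plus strand) was at 33773, 38541, 31805, and 26483 CPM in control replicates 1 to 4 and 22809.7 and 22149 CPM in replicates 1 and 2 labelled Zip8 knockout. Bpifa1 (ENSMUSG00000027483, chr2:154142880-154149219, plus strand) was at 31100, 28391, 9004, and 8909 CPM in control replicates 1 to 4 and 948 and 4709 CPM in replicates 1 and 2 labelled Zip8 knockout, so that it spread far more than the other 3 genes and was highest in control replicates 1 and 2. In replicate 2 labelled Zip8 knockout, 4978 of 6762 Bpifa1 UMIs came from 1 cell, and the level without it was 1293 CPM.

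These 4 genes chose or named the cells, so their levels are given with no test. Among cells with at least 3 UMIs each of the club cell genes Cyp2f2, Cbr2, and Hp, fewer than 3 of Muc5b, and 0 of the same 5 lineage genes, called lineage-negative club-gate cells here, the means were 5.88 ± 0.254 CPM for Muc5b, 11.1 ± 6.27 CPM for Tff2, and 303 ± 291 CPM for Scgb3a1 (SD, n = 6). Bpifa1 was at 7527, 219, 36.6, and 5.95 CPM in control replicates 1 to 4 and 10.5 and 129 CPM in replicates 1 and 2 labelled Zip8 knockout in those cells. Among those with 0 Muc5b UMIs, 14551 of 14979 Bpifa1 UMIs came from 2 cells of control replicate 1. With every cell thinned to 2000 UMIs, a Scgb3a1 UMI was found in 81.1% ± 8.43 of Muc5b+ cells (SD, n = 6), in 17.2% of lineage-negative club-gate cells, and in 20.2% of endothelial cells (at least 3 Cdh5 UMIs and 0 of Epcam and Ptprc, median depth 3884 to 6873 UMIs), which should lack it. The share for Tff2 was 60.3% ± 8.32 in Muc5b+ cells against 0.810% in endothelial cells, and that for Bpifa1 was 48.4% ± 14.4 against 7.46%. Unthinned, the shares in Muc5b+ and endothelial cells were 98.3% and 45.3% for Scgb3a1, 81.4% and 2.48% for Tff2, and 73.7% and 19.8% for Bpifa1. At 2000 UMIs, the share of lineage-negative club-gate cells with a Scgb3a1 UMI thus did not exceed that of endothelial cells, and the share of Muc5b+ cells did. The classes differ in depth, with a median of 30558 UMIs in lineage-negative club-gate cells. The part of free RNA in these shares was not tested.

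**Figure D1:**
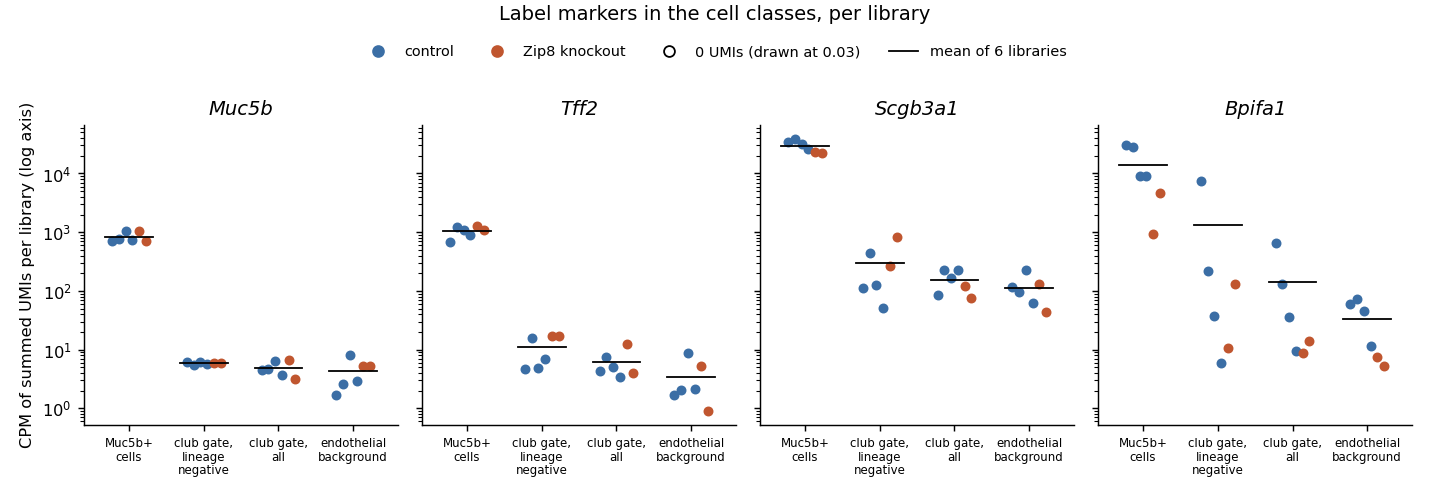
CPM (log axis) of Muc5b, Tff2, Scgb3a1, and Bpifa1 in Muc5b+ cells, comparison cells, lineage-negative club-gate cells, and endothelial cells, where each point is the sum over the cells of 1 of the 6 libraries. Muc5b in Muc5b+ cells lies between 709 and 1042 CPM, and Bpifa1 ranges from 948 to 31100 CPM among the same libraries.

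The cells were epithelial, and all 166 also passed the club gate of at least 3 UMIs each of Cyp2f2, Cbr2, and Hp. Epcam was found in 162 of 166. Of basal cell markers, there were 12 Krt5 UMIs in 4 cells, 0 of Krt14, and Trp63 in 4 cells. Krt15 was the most abundant gene of the basal and hillock list, with 3 or more UMIs in 14 cells. The summed list was at 71 to 274 CPM. None of the cells was marked by the doublet score. Of the 166 barcodes, 150 also occurred in another library, where they held at most 7.45% of the UMIs they held here, and no barcode was counted in 2 libraries. The 5 conditions of 0 UMIs removed most Muc5b-bearing barcodes. Of 1065 kept barcodes with at least 3 Muc5b UMIs, 576 had a Lamp3 UMI, 555 a Col1a2 UMI, and 344 a Foxj1 UMI, some of them more than one of these. Their shares of 54.1% for Lamp3 and 52.1% for Col1a2 were near those of all kept barcodes, at 50.8% and 51%, and the share for Foxj1 was 32.3% against 12.7%.

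The comparison cells set by the rule were barcodes with at least 3 UMIs each of Cyp2f2, Cbr2, and Hp and fewer than 3 of Muc5b, whatever else they carried, and numbered 8138. They were not mainly club cells. At least 3 Lamp3 UMIs were found in 51.5% of them and at least 3 Foxj1 UMIs in 30.9%, and Scgb1a1, the major club cell product, gave under 5% of the UMIs in 70.4%. The median share of a cell's UMIs that came from Scgb1a1 was 51% in Muc5b+ cells, 1.04% in the comparison cells, and 60.2% in the 480 of them that were lineage-negative. Both comparisons are therefore given, and the lineage-negative one, which holds the lineage conditions equal, carries the account of the genes. Those 480 cells numbered 62, 53, 93, and 135 in control replicates 1 to 4 and 90 and 47 in the libraries labelled Zip8 knockout, at a median depth of 30558 UMIs, below that of the Muc5b+ cells. Scgb1a1 gave under 5% of the UMIs in 31 of the 480. The doublet score marked 19 of them, of which 11 were in control replicate 2.

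**Figure D2:**
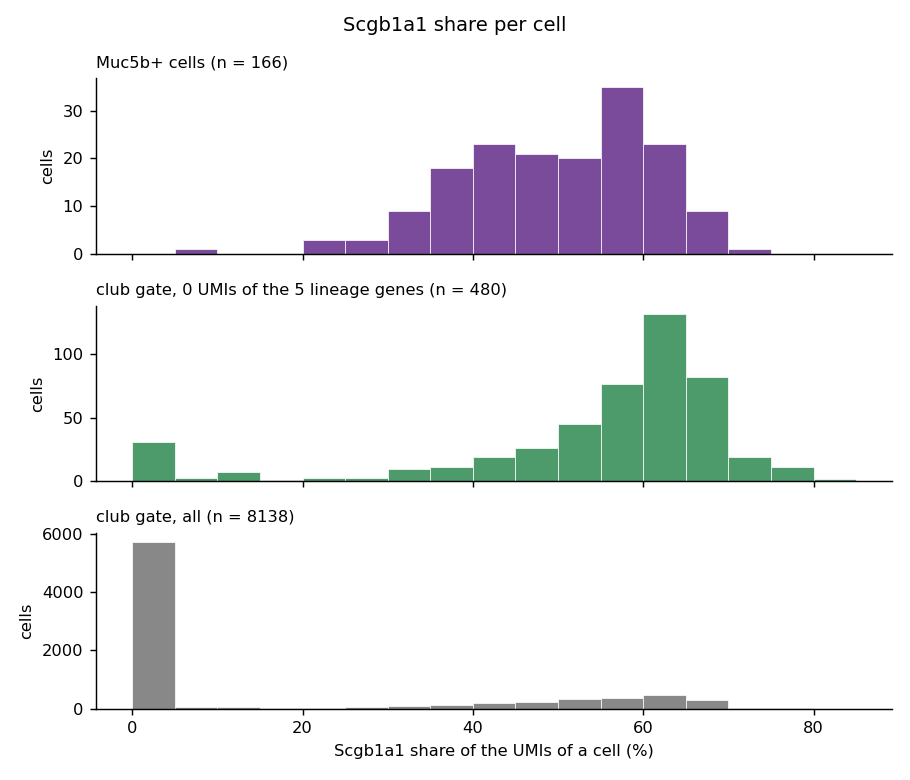
Number of cells (y axis) by the share of a cell's UMIs that came from Scgb1a1 (x axis, percent), in a panel each for the 166 Muc5b+ cells, the 8138 comparison cells, and the 480 of them with 0 UMIs of the 5 lineage genes. Most comparison cells lie under 5%, while Muc5b+ cells and lineage-negative club-gate cells have medians of 51% and 60.2%.

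Promoter sequence is shown for 4 genes of secreted proteins, of which Scgb3a1 and Bpifa1 name the cells and Bpifb1 and Reg3g are described below among the defense proteins. The 250 bases before the RefSeq start (GRCm38.p6) are printed for Scgb3a1 (chr11:49663345-49663594, plus strand), Bpifa1 (chr2:154142630-154142879, plus strand), the first of 2 starts of Bpifb1 (chr2:154190568-154190817, plus strand), and Reg3g (chr6:78468875-78469124, minus strand). Capitals mark matches, on either strand, to a forkhead core (TGTTTNC) or to an NKX2 core (TCAAGTG), which were searched because forkhead and NKX2 factors act in airway epithelium.
Scgb3a1: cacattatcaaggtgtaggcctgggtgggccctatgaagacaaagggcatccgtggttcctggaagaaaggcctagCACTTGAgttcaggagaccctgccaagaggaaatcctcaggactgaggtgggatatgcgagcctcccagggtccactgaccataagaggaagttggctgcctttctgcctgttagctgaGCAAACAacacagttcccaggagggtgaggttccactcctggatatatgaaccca
Bpifa1: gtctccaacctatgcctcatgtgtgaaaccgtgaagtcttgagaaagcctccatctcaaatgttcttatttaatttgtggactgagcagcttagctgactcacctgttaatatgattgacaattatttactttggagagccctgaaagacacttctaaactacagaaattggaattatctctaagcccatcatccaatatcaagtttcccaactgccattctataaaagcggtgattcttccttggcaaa
Bpifb1: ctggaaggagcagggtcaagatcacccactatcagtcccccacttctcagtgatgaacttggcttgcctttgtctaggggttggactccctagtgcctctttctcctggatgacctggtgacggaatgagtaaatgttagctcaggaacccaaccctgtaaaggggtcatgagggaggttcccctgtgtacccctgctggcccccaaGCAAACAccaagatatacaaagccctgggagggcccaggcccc
Reg3g: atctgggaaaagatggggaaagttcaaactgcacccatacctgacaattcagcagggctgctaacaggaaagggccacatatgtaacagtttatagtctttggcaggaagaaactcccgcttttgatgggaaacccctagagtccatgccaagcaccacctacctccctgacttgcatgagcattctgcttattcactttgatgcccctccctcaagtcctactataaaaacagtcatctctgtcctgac
In Scgb3a1 the forkhead match began 55 bases and the NKX2 match 174 bases before the start. In Bpifb1 a forkhead match began 43 bases before the first start, and the 250 bases before its second start, not printed, held neither run of letters. Bpifa1 and Reg3g held neither. Of 32817 promoters in the table, 17.8% held TGTTTNC and 2.68% held TCAAGTG, so these matches are a description of the sequence only.

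In the comparison set by the rule, with library as a block, 5260 of 13559 genes passed an adjusted p of 0.05 by edgeR's quasi-likelihood test (38.8%), 2155 of them higher (15.9%) and 3105 lower (22.9%) in Muc5b+ cells. The genes with the smallest adjusted p among those higher included Adh7, Chad, Clca1, St8sia6, Lypd2, Aldh3a1, Scgb3a2, Fxyd3, Pigr, Bpifb1, and Calml3, with log2 fold changes of 5.29, 4.19, 9.68, 7.0, 3.64, 3.78, 3.35, 3.65, 3.01, 7.91, and 4.34. Those that fell included the AEC2 genes Sftpc (-4.80), Napsa (-4.50), Lyz1 (-4.90), Slc34a2 (-4.14), Hdc (-4.95), and S100g (-4.14), the ciliated genes Dynlrb2 (-5.06), Ccdc153 (-4.89), and Tmem212 (-5.69), and Cldn18 (-5.13), Scd1 (-3.86), and H2-Aa (-4.26). For AEC2, ciliated, fibroblast, endothelial, and immune genes, 0 UMIs of a marker gene were required in 1 class only, so nothing is read from their lower levels here. The median over all genes was -0.09, and scaling to total UMIs moved it to -0.82 with 630 genes higher and 9125 lower, so directions are relative to the median gene.

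Against lineage-negative club-gate cells, 1472 of 8683 genes passed (17.0%), 733 higher (8.44%) and 739 lower (8.51%), with a median log2 fold change of 0.007. The gates use counts of 9 genes in the same cells, so genes that go with those in single cells are not independent of them. A gene near 0 in the lineage-negative club-gate cells could pass the filter on low counts only through the Muc5b+ cells, and then had to be higher there, so counts and medians over the tested members of a list describe those members and are no support for the list as a whole. All fold changes that follow are from this comparison, by edgeR's quasi-likelihood test over all 8683 genes with Benjamini-Hochberg adjustment, unless another is named.

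Several mucus genes were higher. Of 22 listed mucous and goblet genes, 6 had 0 UMIs in the lineage-negative club-gate cells and 5 had 0 UMIs in the Muc5b+ cells. Of 13 tested, 10 rose and 0 fell (median log2 fold change 3.62), and in the comparison set by the rule 13 rose and 0 fell of 14. Clca1, a secreted regulator of airway mucus, was at 8.37, 10.1, 46.6, and 61.8 CPM in control replicates 1 to 4 and 1947 and 31.3 CPM in replicates 1 and 2 labelled Zip8 knockout, and at most 2.55 CPM in lineage-negative club-gate cells (log2 fold change 9.01, SE 0.28, adjusted p = 4.70e-14). It was above every comparison value in every library, but its size rests on replicate 1 labelled Zip8 knockout, where 2431 of 4053 UMIs came from 1 cell, and without that library the log2 fold change was 6.81. Single cells also held 43 of 45 Clca1 UMIs in replicate 2 labelled Zip8 knockout and 47 of 51 in control replicate 4. Only 1 cell each of control replicates 1 and 2 and of replicate 2 labelled Zip8 knockout had 3 or more UMIs, so the lack of overlap rests on few cells. Muc5ac, the other gel-forming airway mucin, was at 11.2 to 100.4 CPM (median 16.3) in the Muc5b+ cells against 0 to 1.70 CPM (median 1.0) in the lineage-negative club-gate cells (log2 fold change 4.94, SE 0.31, adjusted p = 1.0e-09). It was found in 83 of the 166 cells and at 3 or more UMIs in 27. Its log2 fold change was 4.24 without replicate 1 labelled Zip8 knockout. Agr2, an endoplasmic reticulum (ER) disulfide isomerase needed to fold mucins, was at 55 to 179 CPM (median 129) in the Muc5b+ cells against 0.626 to 9.26 CPM (median 5.91) in the lineage-negative club-gate cells (log2 fold change 4.49, SE 0.25, adjusted p = 2.08e-10), and no values of the classes overlapped, as for 381 of the 8683 genes higher (4.39%) and 215 of those lower (2.48%).

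Muc4 and Muc16, membrane-bound mucins, had log2 fold changes of 1.90 (SE 0.16, adjusted p = 6.85e-08) and 3.79 (SE 0.42, adjusted p = 5.29e-06), and Muc16 was at 2.93 without control replicate 2 and did not pass with DESeq2 (adjusted p = 0.108). Fcgbp, a mucus component, was at 3.62 (SE 0.40, adjusted p = 2.31e-06) and at 2.81 without replicate 1 labelled Zip8 knockout. Galnt12, which starts O-glycan chains on mucins, was at 1.68 (SE 0.29, adjusted p = 2.91e-04). Foxa3 and Spdef encode transcription factors of goblet cell differentiation. Foxa3 rose by 4.02 (SE 0.42, adjusted p = 1.17e-06) on the log2 scale and Spdef by 1.80 (SE 0.42, adjusted p = 0.00480), and Spdef was lost without replicate 1 labelled Zip8 knockout (1.26, adjusted p = 0.0501). Spdef was found at 3 or more UMIs in 10 of the 166 cells. Ern2, the IRE1 sensor of mucous cells, had 0 UMIs in the lineage-negative club-gate cells and 76 in Muc5b+ cells, and was at least 50.9-fold higher against a floor of 3 counts over the group.

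Some genes that build and fold mucins were higher. Of 41 listed genes, 6 had 0 UMIs in the lineage-negative club-gate cells and 5 had 0 UMIs in the Muc5b+ cells. Of 26 tested, 14 rose and 1 fell (median log2 fold change 0.68). Galnt7, another transferase that adds N-acetylgalactosamine to mucins, changed by 2.67 (SE 0.26, adjusted p = 4.65e-07), and Nans, which makes sialic acid, by 1.30 (SE 0.17, adjusted p = 1.51e-05). The sialyltransferase gene St8sia6 was at 51.5 to 82.5 CPM (median 62.6) in the Muc5b+ cells against 0 to 2.83 CPM (median 0.727) in the lineage-negative club-gate cells (log2 fold change 5.82, SE 0.25, adjusted p = 5.17e-12), so its classes were far apart. It was at 6.64 without replicate 1 labelled Zip8 knockout. A pair of fucosyltransferase genes had few or no UMIs in the lineage-negative club-gate cells. Fut9 had 187 UMIs in 62 cells against 0, and was at least 125-fold higher, and Fut2 had 47 UMIs against 1, a ratio of CPM of 94.5-fold (95% counting interval 16.2 to 3810.4). With each library left out, the fitted log2 fold change of Fut2 ran from 5.33 to 6.44. St3gal1, a sialyltransferase, went the other way at -1.69 (SE 0.25, adjusted p = 7.60e-05). Of 38 genes of ER secretory load and the unfolded protein response, 5 rose and 0 fell of 36 tested (median log2 fold change -0.0064), and the most abundant of them, the chaperone gene Hspa5, did not pass (log2 fold change -0.19, SE 0.14, adjusted p = 0.446).

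Secreted defense genes differed in both size and direction. Of 21 listed, 8 rose and 1 fell of 13 tested (median log2 fold change 0.95), leaving out Scgb3a1 and Bpifa1. Reg3g (ENSMUSG00000030017, chr6:78466269-78468872, minus strand), a bactericidal C-type lectin, was at 1413, 2273, 2777, and 2306 CPM in control replicates 1 to 4 and 1089 and 1212 CPM in replicates 1 and 2 labelled Zip8 knockout in Muc5b+ cells and 1.25 to 24.2 CPM (median 9.29) in lineage-negative club-gate cells (log2 fold change 7.48, SE 0.30, adjusted p = 2.17e-12). Bpifb1 (ENSMUSG00000027485, chr2:154190818-154220369, plus strand), a secreted BPI-fold protein, was at 1858, 2212, 3263, and 1305 CPM in control replicates 1 to 4 and 1368 and 1529.9 CPM in replicates 1 and 2 labelled Zip8 knockout, against 1.88 to 37.3 CPM (median 11.7) (log2 fold change 7.08, SE 0.31, adjusted p = 5.44e-12). Neither gene had an overlapping value, and at 2000 UMIs per cell they were found in 54.6% and 58.1% of Muc5b+ cells against 1.98% and 2.78%. Ltf (lactotransferrin, which binds iron) rose by 3.53 (SE 0.38, adjusted p = 1.32e-06), Pglyrp1 (a peptidoglycan recognition protein) by 2.18 (SE 0.20, adjusted p = 2.51e-07), Pigr (the receptor that carries IgA across epithelium) by 1.40 (SE 0.11, adjusted p = 2.36e-08), Cp (ceruloplasmin) by 1.11 (SE 0.086, adjusted p = 2.28e-08), and Wfdc2 (a secreted protease-inhibitor-like protein) by 0.65 (SE 0.094, adjusted p = 4.98e-05). Lyz2 did not pass (log2 fold change 0.55, SE 0.20, adjusted p = 0.0652), and of the 15 listed gland and serous genes, 2 rose and 2 fell of 5 tested (median log2 fold change -0.42), with Azgp1, a secreted glycoprotein, lower at -1.28 (SE 0.16, adjusted p = 1.0e-05).

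Club cell genes moved in both directions. Of 29 listed, 7 rose and 10 fell of 25 tested (median log2 fold change -0.20), while against the comparison cells of the rule 22 rose and 2 fell of 25 (median 1.18). Scgb1a1 was at 472981 to 545802 CPM (median 494137) in Muc5b+ cells and 530840 to 601627 CPM (median 584250) in the lineage-negative club-gate cells (log2 fold change -0.29, SE 0.081, adjusted p = 0.0184). The call was lost without control replicate 1, control replicate 3, or replicate 2 labelled Zip8 knockout (adjusted p 0.0755, 0.115, and 0.0911). Scgb3a2, a secretoglobin shared by club cells and distal airway cells, rose from a mean of 7093 ± 1559 CPM to 23101 ± 2828 CPM (SD, n = 6, log2 fold change 1.64, SE 0.14, adjusted p = 1.17e-07). Lypd2 and Chad, the second of which encodes a leucine-rich matrix protein, were at 1014 to 1788 CPM (median 1313) in the Muc5b+ cells against 147 to 267 CPM (median 228) in the lineage-negative club-gate cells (log2 fold change 2.54, SE 0.11, adjusted p = 2.41e-12) and at 189 to 286 CPM (median 224) in the Muc5b+ cells against 29.1 to 55.6 CPM (median 39) in the lineage-negative club-gate cells (log2 fold change 2.45, SE 0.091, adjusted p = 6.83e-13).

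Xenobiotic metabolism, the best-known enzymatic role of club cells, changed in both directions. Of 47 listed genes, 13 rose and 11 fell of 38 tested (median log2 fold change 0.17). Those higher included Adh7, a retinol and alcohol dehydrogenase, at 3.33 (SE 0.16, adjusted p = 1.28e-11), Cyp2a5 at 2.80 (SE 0.29, adjusted p = 1.13e-06), Sult1d1, a sulfotransferase, at 2.89 (SE 0.12, adjusted p = 2.41e-12), Aldh3a1, an aldehyde dehydrogenase, at 2.19 (SE 0.13, adjusted p = 3.26e-10), and Gsto1, a glutathione transferase, at 2.09 (SE 0.14, adjusted p = 1.66e-09). Those lower included Cyp2b10 at -1.29 (SE 0.15, adjusted p = 5.33e-06) and, outside the list, Ptgr1, a prostaglandin reductase, at -1.61 (SE 0.13, adjusted p = 3.11e-08) and the antioxidant enzyme Prdx6 at -1.05 (SE 0.088, adjusted p = 6.26e-08). Cyp2f2, a gate gene given with no test, was at means of 7971 ± 1078 CPM and 7295 ± 747 CPM.

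Among transport genes, 5 rose and 6 fell of 19 tested (median log2 fold change -0.11). Slc12a2, the basolateral chloride importer NKCC1 that feeds fluid secretion, was at 220 to 298 CPM (median 244) in the Muc5b+ cells against 74.2 to 97.4 CPM (median 86.6) in the lineage-negative club-gate cells (log2 fold change 1.46, SE 0.10, adjusted p = 1.92e-09), with no overlap. Clic6 rose by 1.32 (SE 0.15, adjusted p = 4.14e-06) and the water channel gene Aqp4 by 1.16 (SE 0.22, adjusted p = 7.34e-04), and Slc5a8, a sodium-coupled monocarboxylate transporter, had 65 UMIs against 2, a ratio of 65.3-fold (95% counting interval 17.4 to 551). With each library left out, the fitted log2 fold change of Slc5a8 ran from 4.75 to 5.98. Cftr, the chloride channel of ionocytes and secretory cells, reached 3 UMIs in 0 of the 166 cells. Slc15a2, the peptide transporter PEPT2, was at 49.5 to 174 CPM (median 106) in the Muc5b+ cells against 5.39 to 19.5 CPM (median 7.09) in the lineage-negative club-gate cells (log2 fold change 3.56, SE 0.14, adjusted p = 1.85e-12). Other genes with the smallest adjusted p were Calml3 (a calmodulin-like protein, 5.31), Lgals3 (galectin-3, 2.23), Cpd (carboxypeptidase D, 2.80), and the claudin gene Cldn22, with 303 UMIs against 3 and a ratio of 203-fold (95% counting interval 68.8 to 990.1).

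Of 37 listed airway transcription factor genes, 16 rose and 6 fell of 33 tested (median log2 fold change 0.36). Beside Foxa3 and Spdef, Klf4 rose by 2.59 (SE 0.13, adjusted p = 2.03e-11), the epithelial factor Elf3 by 1.11 (SE 0.13, adjusted p = 4.25e-06), Bhlhe40 by 1.33 (SE 0.13, adjusted p = 4.65e-07), and Sox21 by 3.39 (SE 0.37, adjusted p = 1.53e-06), or by 4.0 without control replicate 3. Sox9, which marks submucosal gland and distal progenitor cells among other sites, had 139 UMIs in 44 cells against 3 UMIs, all in control replicate 3, a ratio of 93.1-fold (95% counting interval 31.2 to 457). With each library left out, the fitted log2 fold change of Sox9 ran from 5.67 to 8.05. The Notch pathway directs secretory against ciliated fate, and of 20 listed genes 3 rose and 2 fell of 13 tested (median log2 fold change -0.029). The receptor gene Notch3 rose by 1.04 (SE 0.25, adjusted p = 0.00521), though not with DESeq2 (adjusted p = 0.0559), and the target gene Hey1 by 2.53 (SE 0.49, adjusted p = 0.00103), while the most abundant member, Hes1, was at log2 fold change -0.49, SE 0.11, adjusted p = 0.00446.

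Genes lower in Muc5b+ cells included many of the distal lung. Of 14 AEC2 markers, 1 rose and 8 fell of 13 tested (median log2 fold change -0.67), and of 11 AEC1 markers, 1 rose and 6 fell of 8 tested (median log2 fold change -0.88). Ager, the receptor RAGE and a defining AEC1 gene, was at 13.1 to 64.2 CPM (median 28.1) in the Muc5b+ cells against 163 to 343 CPM (median 214) in the lineage-negative club-gate cells (log2 fold change -3.05, SE 0.20, adjusted p = 1.62e-09). Sftpb (surfactant protein B) was at -1.15 (SE 0.12, adjusted p = 1.02e-06), Cldn18, a tight junction gene of alveolar cells, at -2.40 (SE 0.28, adjusted p = 4.22e-06), and Hopx at -1.28 (SE 0.11, adjusted p = 1.45e-07), whereas Pdpn, on the AEC1 list, rose by 2.66 (SE 0.24, adjusted p = 1.99e-07). Cxcl15, a lung epithelial chemokine, was at 196 to 589 CPM (median 329) in the Muc5b+ cells against 932 to 1326 CPM (median 1036) in the lineage-negative club-gate cells (log2 fold change -1.73, SE 0.15, adjusted p = 1.16e-07). Igfbp6, which binds insulin-like growth factor 2, had the smallest adjusted p of the genes lower, at 23 to 42.4 CPM (median 29.6) in the Muc5b+ cells against 77.4 to 199 CPM (median 153) in the lineage-negative club-gate cells (log2 fold change -2.30, SE 0.13, adjusted p = 2.08e-10). Npc2, Clic3, Npw, Nebl, Fhl1, S100g, and Sfta2 completed the genes with the smallest adjusted p, with log2 fold changes of -1.33, -1.53, -2.20, -1.67, -1.81, -2.50, and -1.42. The summed level of the AEC2 list was 3921 to 8519 CPM in Muc5b+ cells and 6811 to 9716 CPM in lineage-negative club-gate cells, with Sftpa1 the most abundant gene in both. The part of free AEC2 RNA in these levels was not tested.

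**Figure D3:**
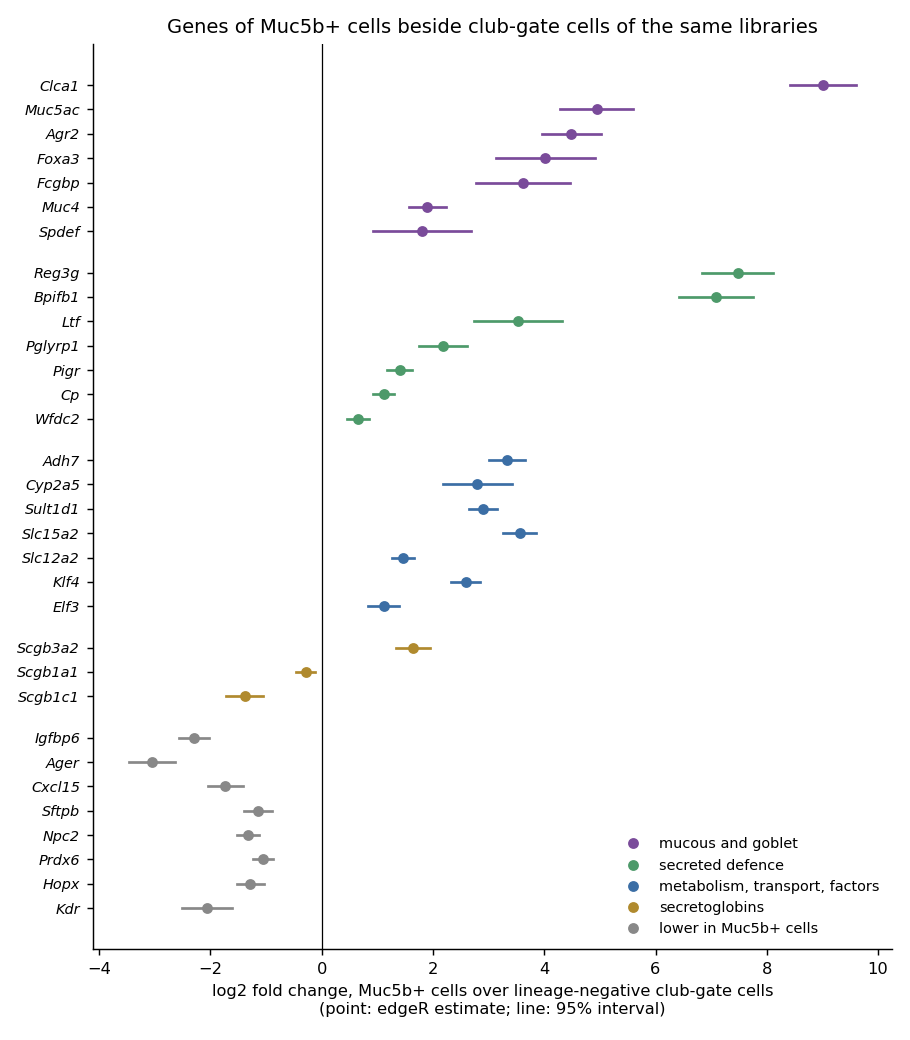
Log2 fold change (x axis) of Muc5b+ cells over lineage-negative club-gate cells for named genes colored by role, with points for the estimate of edgeR's quasi-likelihood fit over 6 libraries and lines for its 95% interval. Bpifb1, Reg3g, and Clca1 lie at 7.08, 7.48, and 9.01, Scgb1a1 at -0.29, and Ager and Cxcl15 at -3.05 and -1.73.

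Markers of other cell types are given next. Of ciliated markers, 0 rose and 6 fell of 13 tested (median log2 fold change -1.0), and their summed level was 304 to 400.2 CPM, led by Sec14l3. Of basal and hillock markers, 0 rose and 3 fell of 8 tested (median log2 fold change -0.91), where Krt17 (log2 fold change -3.03, SE 0.65, adjusted p = 0.00253) was lost without control replicate 3 (adjusted p = 0.0884) and with DESeq2 (0.579). Of endothelial markers 0 rose and 2 fell of 3 tested (median log2 fold change -1.36), of fibroblast markers 0 rose and 4 fell of 8 tested (median log2 fold change -0.34), of immune markers 0 rose and 1 fell of 1 tested (median log2 fold change -0.63), and of rare airway cell markers 0 rose and 1 fell of 7 tested (median log2 fold change 0.78), with a mean summed level of 61.6 CPM against 25.7 CPM. Of erythroid genes, which airway cells are not known to make, 0 rose and 4 fell of 4 tested (median log2 fold change -2.40), with Hbb-bs at -2.10 (SE 0.47, adjusted p = 0.00354) in all libraries and -0.88 (adjusted p = 0.168) without control replicate 4. Of mesothelial markers 2 rose and 0 fell of 3 tested (median log2 fold change 1.79), where Msln (mesothelin) was at 1.79 (SE 0.32, adjusted p = 4.40e-04) and Upk1b (a uroplakin) at 1.97 (SE 0.40, adjusted p = 0.00146). Of cycling genes 0 rose and 1 fell of 3 tested (median log2 fold change -0.27), with Stmn1, a tubulin regulator, at -1.82 (SE 0.20, adjusted p = 2.19e-06).

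Of 18 genes that cell dissociation induces, 7 rose and 1 fell of 18 tested (median log2 fold change 0.19), with Hspa1a at 1.31 (SE 0.15, adjusted p = 3.47e-06) and Hspa1b at 1.25 (SE 0.15, adjusted p = 4.39e-06), and their part in the other differences was not tested. Of 33 genes of MHC class I and the interferon response, 3 rose and 0 fell of 20 tested (median log2 fold change 0.20), with Ifit1 at 2.98 (SE 0.26, adjusted p = 1.31e-07) and H2-T23 at 1.06 (SE 0.17, adjusted p = 1.24e-04). Of 28 zinc transporter and metallothionein genes, 0 rose and 0 fell of 18 tested (median log2 fold change 0.16), and of 21 sirtuin genes, p53 targets, and genes of the targeted loci, 0 rose and 1 fell of 17 tested (median log2 fold change -0.10). Of sex genes 0 rose and 0 fell of 4 tested (median log2 fold change 0.006), with Xist at 0 UMIs in all Muc5b+ cells and Ddx3y, from the Y chromosome, in every library. Beside these counts, 8.44% of all tested genes rose and 8.51% fell.

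Against the comparison cells of the rule, where 15.9% of all 13559 genes rose and 22.9% fell, the remaining list counts were 9 rose and 4 fell of 14 for defense, 3 rose and 1 fell of 7 for gland and serous genes, 18 rose and 8 fell of 34 for glycosylation, 12 rose and 3 fell of 36 for the ER list, 30 rose and 2 fell of 43 for xenobiotic metabolism, 9 rose and 5 fell of 20 for transport, 20 rose and 8 fell of 34 for transcription factors, and 5 rose and 4 fell of 19 for Notch. For stress genes it was 8 rose and 3 fell of 18, for the zinc list 2 rose and 6 fell of 22, for MHC class I and interferon 8 rose and 6 fell of 32, for the sirtuin list 3 rose and 9 fell of 21, for basal markers 4 rose and 1 fell of 8, for rare airway cell markers 1 rose and 1 fell of 9, for mesothelial markers 2 rose and 4 fell of 6, and for sex genes 0 rose and 0 fell of 4. The cycling list had 0 rose and 7 fell of 9, with a median of -3.14, or -1.73 with genes at 0 set to their bound. Of the lists of other lineages, 0 rose and 13 fell of 13 (median -3.82) for AEC2, 0 rose and 13 fell of 13 (median -4.89) for ciliated, 2 rose and 6 fell of 11 for AEC1, 0 rose and 10 fell of 11 for fibroblast, 0 rose and 6 fell of 11 for endothelial, 0 rose and 2 fell of 5 for immune, and 0 rose and 4 fell of 4 for erythroid genes.

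Muc5b+ cells varied among themselves. At least 3 UMIs of Scgb3a1 were found in 153 of 166 cells, of Tff2 in 122, and of Bpifa1 in 94. All 3 genes reached that level in 83 cells, and 12 cells had none of them there. Bpifb1 reached it in 110 cells, Reg3g in 105, Ltf in 92, Agr2 in 85, Calml3 in 69, Itln1 in 68, Muc4 in 46, Muc5ac in 27, Sox9 and Clca1 in 21 each, and Dmbt1, a secreted scavenger receptor of glands, in 0. Itln1 encodes the lectin intelectin, and the 68 cells lay in control replicates 3 and 4 (23 and 9) and replicate 1 labelled Zip8 knockout (36), with 0 in the other 3 libraries.

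Scgb3a1, Tff2, Reg3g, Bpifb1, Agr2, and Muc5ac were highest in the cells with the most Muc5b UMIs. Lineage-negative cells that passed the club gate were binned by their Muc5b UMIs, with 402 cells at 0, 61 at 1, 17 at 2, 24 at 3 to 4, 16 at 5 to 9, 35 at 10 to 29, 47 at 30 to 59, and 44 at 60 or more, each bin drawn from all 6 libraries. Scgb3a1 was at 104 CPM in cells with 0 Muc5b UMIs, at 432 CPM at 3 to 4, at 20174 CPM at 10 to 29, and at 43627 CPM at 60 or more. The 24 cells just inside the rule were thus closer to the cells outside it than to those with 10 or more. Reg3g was at 8.29, 23, 454, and 3368 CPM in the same 4 bins, Tff2 at 7.81, 41.1, 476, and 1995 CPM, and Agr2 at 6.39, 1.0, 53.2, and 226 CPM. Muc5ac was highest in the last bin, at 103 CPM against 23.6 CPM in the bin before it. Of its 256 UMIs in the last bin, 137 came from 2 cells of replicate 1 labelled Zip8 knockout. Distal genes ran the other way, with Cxcl15 at 1078, 782, 389.9, and 177 CPM and Ager at 238, 93.2, 25.8, and 12.4 CPM. Scgb1a1 was at 576521 and 464823 CPM in the first and last bins. Of the club gate genes, Cyp2f2 lay between 7051 and 8763 CPM in all bins. Hp was at 5319 and 2768 CPM and Cbr2 at 7245 and 4871 CPM in the first and last. Ltf was not highest in the last bin, at 1013 CPM at 5 to 9 Muc5b UMIs and 205 CPM at 60 or more. Of its 742 UMIs at 5 to 9, 660 came from 2 cells of control replicate 1. Bpifa1 rested on few cells. At 5 to 9 Muc5b UMIs it was at 16191 CPM, but 11818 of 11857 UMIs came from 2 cells of control replicate 1, and without these the level was 59.2 CPM. With the 2 cells holding the most Bpifa1 UMIs left out of each bin, a step taken after seeing the data, it was at 33.9 CPM at 0 Muc5b UMIs, 11.9 CPM at 3 to 4, 5917 CPM at 10 to 29, 12644 CPM at 30 to 59, and 4597 CPM at 60 or more. Under the same step, Scgb3a1, Tff2, Reg3g, Agr2, and Muc5ac were at 41813, 1837, 3012, 162, and 50.5 CPM at 60 or more, in each case their highest bin. The bins share libraries and differ in depth, with medians of 28832 to 59126 UMIs per cell. They also draw on the libraries unequally. Most cells at 60 or more came from control replicate 3 and replicate 1 labelled Zip8 knockout. Bpifa1 and Ltf were highest in control replicates 1 and 2, and the part of library make-up in their bins was not tested.

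**Figure D4:**
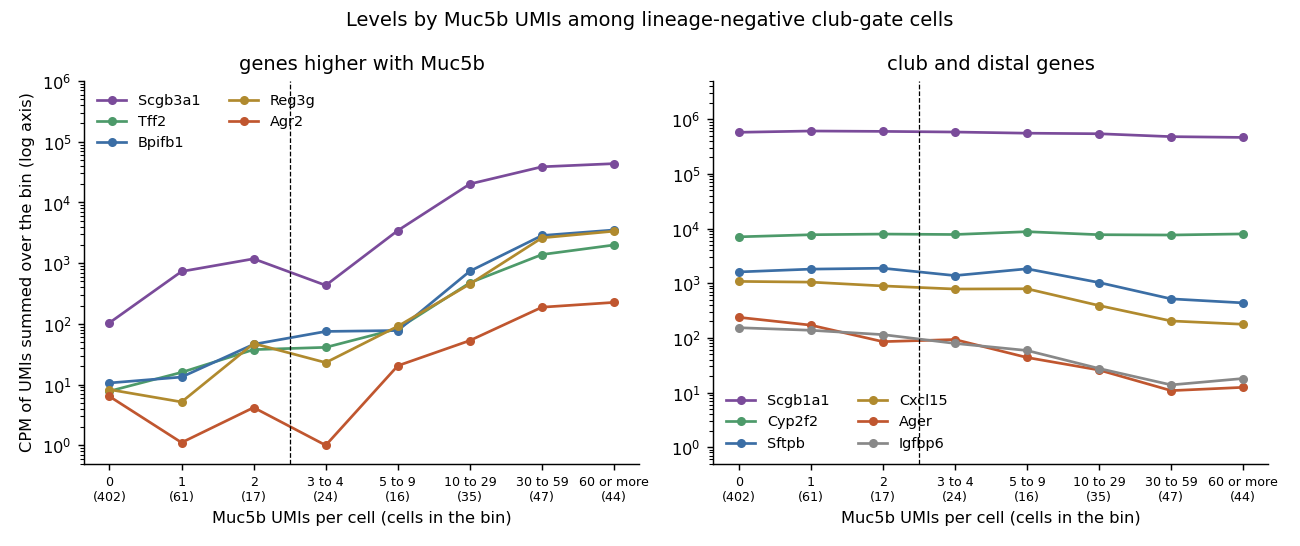
CPM (log axis) of named genes in lineage-negative cells that passed the club gate, binned by their Muc5b UMIs (x axis, with the number of cells), where each point sums the cells of 1 bin over the 6 libraries and the dashed line marks the minimum of 3 UMIs. Scgb3a1, Tff2, Reg3g, Bpifb1, and Agr2 are highest at 60 or more UMIs, Cxcl15 and Ager are highest at 0, and Cyp2f2, a club gate gene, lies between 7051 and 8763 CPM, unlike the other club gate genes Hp and Cbr2, which are not drawn and are lower in the last bin than in the first.

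Among Muc5b+ cells, each thinned to 2000 UMIs, Spearman's correlation with Muc5b was taken within each library over 454 genes found in at least 20% of the cells and averaged over the 6 libraries. The cells of a library share its depth and free RNA, and the values are a description. Scgb1a1 gave a median of 51% of the UMIs of a cell. With the total fixed at 2000, a cell with more Scgb1a1 has fewer UMIs of other genes, so the correlations are not independent of its share. The highest means were those of Tff2 (0.52), Scgb3a1 (0.51), Reg3g (0.47), Wfdc2 (0.44), Bpifb1 (0.42), Lypd2 (0.41), the keratin gene Krt19 (0.38), Slc12a2 (0.34), Scgb3a2 (0.33), and Lgals3 (0.33). The lowest were those of Scgb1a1 (-0.39), Cxcl15 (-0.36), Sftpb (-0.36), Sftpd (-0.23), and the lactate dehydrogenase gene Ldhb (-0.19). Tff2 ranged from 0.13 in control replicate 2 to 0.75 in control replicate 4, so single libraries of about 20 cells gave wide values.

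The genotype labels were examined last. Slc39a8 (ENSMUSG00000053897, chr3:135825279-135888572, plus strand), which encodes the zinc importer ZIP8, was at 23.7, 21.2, 12.3, and 17 CPM in control replicates 1 to 4 and 9.61 and 9.05 CPM in replicates 1 and 2 labelled Zip8 knockout in Muc5b+ cells, from 17, 21, 24, 14, 20, and 13 UMIs (log2 fold change -0.80, SE 0.33, adjusted p = 0.732). Both labelled libraries lay below every control, as for 11.1% of the 6519 genes tested, and the difference did not pass. In cells of an AEC2 gate (at least 3 Lamp3 UMIs and 0 of Foxj1, Ptprc, Cdh5, Col1a2, and Muc5b), where the deletion was aimed, it was at 245, 235, 217, and 233 CPM in control replicates 1 to 4 and 255 and 246 CPM in replicates 1 and 2 labelled Zip8 knockout. Both labelled libraries lay above every control there, so the targeted gene was not lower in them. Counts of the 3′ end need not show a deletion of other exons, and directions below are between the libraries as labelled. Of the other genes chosen for the labels, H2-K1, an MHC class I gene, and Sftpc did not pass (log2 fold changes -0.20 and -0.54, adjusted p = 0.940 and 0.830), Esr1, whose ligand-binding part CreER contains, had 0, 6, 4, and 0 UMIs in the controls and 1 and 1 in the others, Bmp1 had 44 UMIs in all, and Gt(ROSA)26Sor 21.

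Muc5b+ cells made up 0.339, 0.337, 0.772, and 0.275 percent of kept barcodes in control replicates 1 to 4 and 0.933 and 0.464 percent in replicates 1 and 2 labelled Zip8 knockout. Replicate 2 lay within the range of the controls and replicate 1 above it, and Wilson 95% intervals, which cover counting error only, ran from 0.701 to 1.24 for replicate 1 and from 0.561 to 1.06 for control replicate 3. The exact permutation test, two-sided, gave p = 0.333, where the smallest it allows is 0.0667. The difference in means was 0.268 points, and 0.033 points without replicate 1 labelled Zip8 knockout. Among barcodes with at least 1 Epcam UMI, that replicate was at 1.30 percent, below control replicate 3 at 1.53 percent (exact permutation test, p = 0.8). As a share of Muc5b+ plus comparison cells the values were 1.33, 2.03, 2.46, and 1.70 percent in the controls and 3.07 and 1.43 percent in the others (exact permutation test, p = 0.6), and the difference changed sign without replicate 1 labelled Zip8 knockout. As a share of Muc5b+ plus lineage-negative club-gate cells they were 25.3, 26.4, 28.5, and 12.9 percent in the controls and 33.8 and 32.9 percent in the others. Both labelled libraries lay above every control on that scale, and the exact permutation test gave p = 0.2.

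Within Muc5b+ cells, 2 of 6519 genes passed between the labels (0.0307%), both lower in the libraries labelled Zip8 knockout, while 412 had an unadjusted p under 0.05. DESeq2 also called 0 genes higher and 2 lower. Dcn, which encodes the matrix proteoglycan decorin and is made by fibroblasts, was at 76.7, 71.6, 58.4, and 67.9 CPM in control replicates 1 to 4 and 19.2 and 16.7 CPM in replicates 1 and 2 labelled Zip8 knockout (log2 fold change -1.79, SE 0.20, adjusted p = 0.00491). The groups did not overlap, as for 721 of the 6519 genes that were lower in both (11.1%). Dcn was also lower in endothelial cells of the same libraries, at 620.5, 1013, 668, and 829 CPM in control replicates 1 to 4 and 49.6 and 174 CPM in replicates 1 and 2 labelled Zip8 knockout. The summed fibroblast list in Muc5b+ cells was 524, 663, 353, and 362 CPM in the controls and 144 and 315 CPM in the others, led by Gsn.

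Krt15, a keratin of basal cells, was at 69.7, 212, 53.3, and 80 CPM in control replicates 1 to 4 and 4.32 and 3.48 CPM in replicates 1 and 2 labelled Zip8 knockout (log2 fold change -4.56, SE 0.66, adjusted p = 0.0365), and the groups did not overlap. It rested on 26 cells, and in control replicate 2, 137 of 210 UMIs came from 1 cell. The call was lost without replicate 1 labelled Zip8 knockout (adjusted p = 0.0621), with a Muc5b minimum of 2 UMIs (0.0808), and with a looser cell filter (0.0507). Dcn on the fibroblast list and Krt15 on the basal list were the only genes of the 26 lists that passed between the labels.

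Several mucous and inflammatory genes were high in 1 library and did not pass. Clca1, given above, had a log2 fold change between the labels of 5.07 (SE 0.99, adjusted p = 0.270). Itln1 was at 0, 1.01, 379.5, and 213 CPM in control replicates 1 to 4 and 2456 and 0 CPM in replicates 1 and 2 labelled Zip8 knockout (log2 fold change 3.17, SE 1.48, adjusted p = 0.785). It was highest in replicate 1 labelled Zip8 knockout, where 2496 of 5113 UMIs came from 1 cell and 39 of 46 cells had a UMI, and it was at 0 in the other library of that label. Retnla (RELM-alpha, induced by type 2 cytokines) was at 103, 112, 238, and 726 CPM in control replicates 1 to 4 and 6925 and 341 CPM in replicates 1 and 2 labelled Zip8 knockout (log2 fold change 3.79, SE 0.85, adjusted p = 0.354), and the same library was highest among lineage-negative club-gate cells at 2676 CPM. Without that library the log2 fold change was 0.27. Chil1 (a chitinase-like protein) was at 126, 56.4, 32.3, and 69.1 CPM in control replicates 1 to 4 and 799 and 57.8 CPM in replicates 1 and 2 labelled Zip8 knockout (log2 fold change 2.80, SE 0.68, adjusted p = 0.354), and without replicate 1 labelled Zip8 knockout its direction changed. Muc5ac was at 11.2, 14.1, 29.7, and 14.5 CPM in control replicates 1 to 4 and 100.4 and 18.1 CPM in replicates 1 and 2 labelled Zip8 knockout (log2 fold change 1.79, SE 0.52, adjusted p = 0.472), with 125 of 209 UMIs of that library from 1 cell.

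Control replicates 1 and 2 stood apart in Bpifa1, given above with no test, and in Ltf, at 1331, 1489.8, 247, and 259 CPM in control replicates 1 to 4 and 113 and 226 CPM in replicates 1 and 2 labelled Zip8 knockout (log2 fold change -2.23, SE 0.68, adjusted p = 0.550). The values of the libraries labelled Zip8 knockout lay below all controls for both genes, as for 11.1% of the 6519 genes tested. Control replicates 3 and 4 were nearer to those values than to control replicates 1 and 2. Without the cell that held the most Bpifa1 UMIs in each library, Bpifa1 was at 22952, 21381, 6589, and 6171 CPM in control replicates 1 to 4 and 634 and 1293 CPM in the others, in the same arrangement. The heat shock gene Hspa1a was at 33.5, 266, 341, and 288 CPM in control replicates 1 to 4 and 35.6 and 88.4 CPM in replicates 1 and 2 labelled Zip8 knockout (log2 fold change -1.86, SE 0.61, adjusted p = 0.625), with control replicate 1 as low as the labelled libraries. Reg3g and Bpifb1 had log2 fold changes between the labels of -0.84 and -0.49, and neither passed.

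**Figure D5:**
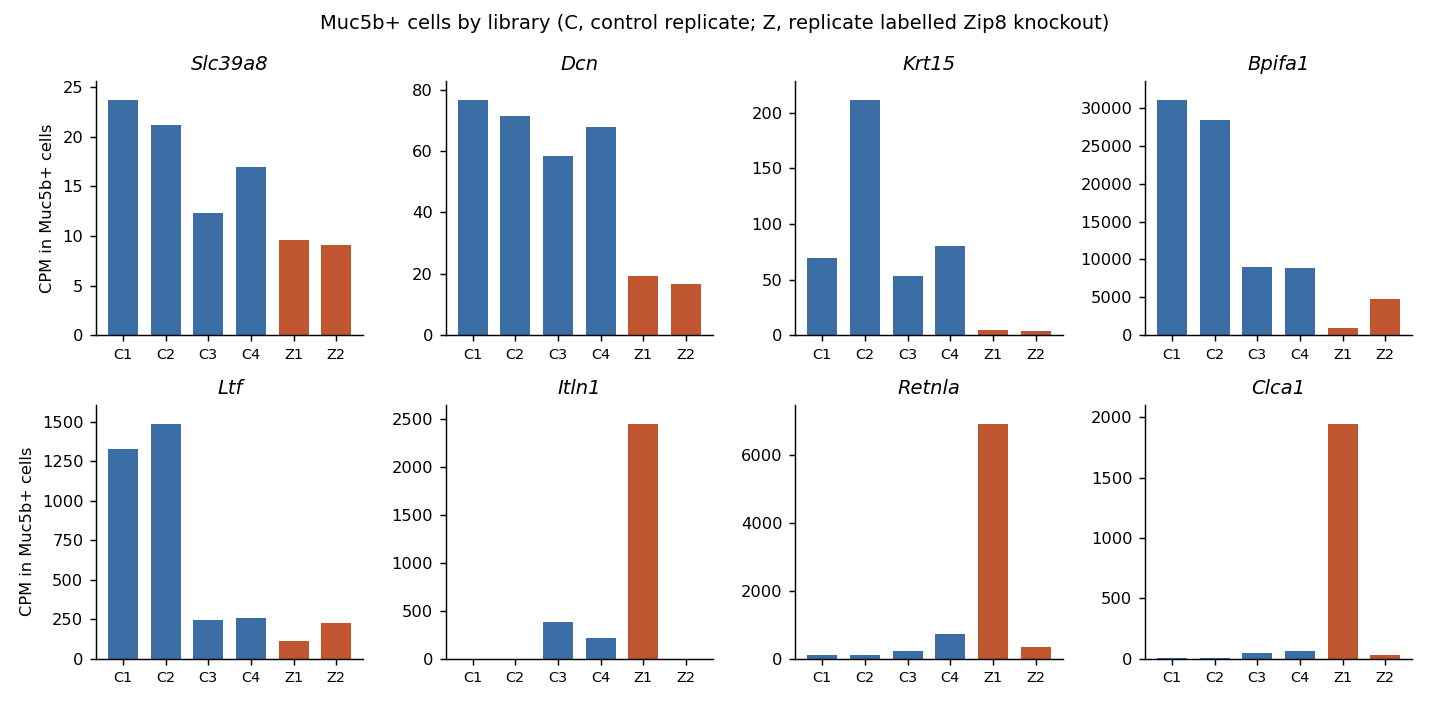
CPM (linear axes that start at 0) of 8 genes in Muc5b+ cells, with 1 bar per library for control replicates 1 to 4 (C1 to C4, blue) and the replicates labelled Zip8 knockout (Z1 and Z2, orange). Itln1, Retnla, and Clca1 are highest in Z1, Bpifa1 and Ltf in C1 and C2, and Slc39a8, Dcn, and Krt15 are lower in both labelled libraries than in every control.

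The difference between the labels was then compared between Muc5b+ cells and the comparison cells of the rule by an interaction term. It passed for 32 of 13570 genes (0.236%), 25 higher (0.184%) and 7 lower (0.0516%) in Muc5b+ cells, and 717 had an unadjusted p under 0.05. Against lineage-negative club-gate cells it passed for 0 of 8690 genes, with 326 at an unadjusted p under 0.05, and by DESeq2 for 0 in the comparison of the rule.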

How the data were processed

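Lungs had been dissociated with elastase and DNase and CD45- cells enriched with magnetic beads. The deposited values are raw UMI counts per gene and barcode that the authors made with Cell Ranger 3.1.0 on mm10, before any of their filters (the submitters' notes also name Seurat, which left no trace in these counts), so ambient RNA was not removed. The 6 libraries held 88578 barcodes, of which 36320 passed the filters on genes, UMIs, and mitochondrial share and 33798 were kept after shared barcodes were dropped.

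Counts were summed per library and class and fitted with edgeR 4.0.16 (TMM, filterByExpr, quasi-likelihood test, Benjamini-Hochberg adjustment over all genes tested, threshold 0.05), with library as a block between classes and no block between the labels. DESeq2 1.42.0 was an alternative. The edgeR fits were tested on simulated data, and the DESeq2 fits were not. In a fit the gate genes and Tff2, Scgb3a1, and Bpifa1 got no call. Shares were compared by an exact permutation test. Doublets were scored per cell from sums of random pairs of cells, as an alternative only. Gene positions are from GENCODE on GRCm38, and promoters from RefSeq on GRCm38.p6.

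For each comparison of classes, genes are named that moved the same way in every library and ranked first by adjusted p, 12 higher and 12 lower (predicted, ribosomal, and mitochondrial genes left out), for the labels and the interaction up to 5 either way whose libraries did not overlap, and in 26 gene lists (525 entries) the most abundant genes and genes past the threshold with an absolute log2 fold change above 1, of which a selection is printed. Some genes that this rule names are not reported here. Itln1, Retnla, Ltf, Bpifa1, Hspa1a, Clca1, and Muc5ac between the labels, Fut9, and Dmbt1 were named after their values were seen. The members and lists were chosen with earlier results of these data known. Alternatives covered normalization, the low-count filter, gates, cell filter, doublets, thinning to 2000 UMIs, and each library left out.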

Additional observations from a re-analysis of the deposited data

Results flagged for a closer look

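In a group of 4 control libraries, a value was listed here when its gap to the nearest other library, divided by the range, passed Dixon's 95% critical value for 4 samples, which chance does in about 1 of 20 groups. Of 108 groups checked, 6 passed. Among Muc5b+ cells, the ratio was 0.867 for Muc5b, where control replicate 3 was high at 1028 CPM, and 0.831 for Krt15, where control replicate 2 was high at 212 CPM. It was 0.929 for Fxyd3, 0.923 for Scgb1c1, and 0.869 for Syt7, and 0.871 for the share of Muc5b+ cells among kept barcodes, where control replicate 3 was high at 0.772%. Both values of control replicate 3 come from Muc5b counts, which chose the cells, and 6 of 108 is near the share that chance gives, so nothing is read from these values.

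The difference between the labels differed between Muc5b+ cells and the comparison cells of the rule, by an interaction term in edgeR with library as a block, in the 10 genes that follow. It was higher in Muc5b+ cells by 5.97 on the log2 scale for Calca (adjusted p = 5.45e-05), 2.90 for Syt7 (0.00499), 0.83 for Sftpc (0.00933), 1.39 for Scgb1c1 (0.00933), and 2.60 for Snhg11 (0.0219). It was lower, at -2.95 for Krt15 (adjusted p = 0.00933), -6.61 for Muc16 (0.00933), -0.88 for Hsp90aa1 (0.0309), -1.17 for Agr2 (0.0375), and -1.11 for Krt23 (0.0377). Calca, which encodes calcitonin gene-related peptide, had 107 of 108 UMIs of replicate 2 labelled Zip8 knockout in 1 cell, and the same cell held 33 of 39 Syt7 UMIs. Without that library Calca was at 2.10 and Syt7 at 1.82 and neither passed, and the calls of Snhg11, Hsp90aa1, Agr2, and Krt23 were lost too. Those of Sftpc, Hsp90aa1, and Krt23 were lost without replicate 1 labelled Zip8 knockout, and those of Sftpc, Snhg11, Hsp90aa1, Agr2, and Krt23 without control replicate 3. Muc16 ran from -12.38 to -5.37 with each library left out. None of the 10 passed against lineage-negative club-gate cells, with DESeq2, or with a replicate block, and the comparison cells hold AEC2s and ciliated cells, whose part in these differences was not tested.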

How the results depend on the processing

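Muc5b+ cells numbered 19 to 46 and lineage-negative club-gate cells 47 to 135 per library, so genes under a few CPM in these classes are limited by depth.

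For Muc5b+ against comparison cells, 2155 genes were higher and 3105 lower. The counts were 630 and 9125 with scaling to total UMIs and 733 and 739 with lineage-negative comparison cells. They were 807 and 767 when these cells also needed 20% of UMIs from Scgb1a1 (chosen after seeing the data). With cells thinned to 2000 UMIs they were 214 and 1719 of 9407 genes tested, at a median log2 fold change of -0.81. List genes numbered 144 higher and 118 lower. They numbered 80 and 230 with total UMIs, 83 and 65 with lineage-negative cells, 96 and 63 with 20% Scgb1a1, and 59 and 95 when thinned. Against lineage-negative cells, DESeq2 called 418 higher and 388 lower, and thinning 59 and 47, with 25 and 13 list genes (all chosen after seeing the data). H2-Aa moved from -4.26 to -0.36 with lineage-negative comparison cells and to 0.0058 when these also needed 20% Scgb1a1.

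Between the labels, 0 genes were higher and 2 lower. Without a low-count filter 84 and 66 passed (13 and 24 list genes), with 1 lower at a Muc5b minimum of 2 UMIs and with a looser cell filter, 0 lower when thinned, and 0 to 14 higher and 1 to 7 lower (0 to 4 and 1 to 5 list genes) when each library was left out. With each library left out, the log2 fold change ran from -0.17 to 3.71 for Chil1, -0.048 to 6.04 for Clca1, -10.51 to 4.29 for Itln1, and -0.055 to 2.52 for Muc5ac, in each case lowest without replicate 1 labelled Zip8 knockout.

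With the replicate number as a block, which leaves the numbered pairs only, 49 genes were higher and 61 lower (15 and 20 list genes). Deviations of the numbered pairs correlated at -0.146 and 0.115. With 2 labelled libraries their deviations mirror each other, so these values cannot show a pairing, and the labels give the samples only a shared number.

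For the interaction, 25 higher and 7 lower became 56 and 31 without a low-count filter, 0 and 0 with DESeq2, the replicate block, or lineage-negative cells, 41 higher with shared barcodes kept, 15 lower with total UMIs, 17 lower at 5 Muc5b UMIs, 0 and 2 with 20% Scgb1a1 or thinning, and 11 to 59 higher and 6 to 22 lower with each library left out. Krt15 turned to 0.31 when thinned. The share among Muc5b+ and comparison cells ran from -0.45 points without replicate 1 labelled Zip8 knockout to 1.19 points without replicate 2, turned to -0.221 points when cells were thinned before the gates, and it was 10.1 points with lineage-negative cells (exact permutation p = 0.2).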

Other observations

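UMIs of Calca and Resp18, which neuroendocrine cells express, came almost wholly from 1 cell among the Muc5b+ cells of replicate 2 labelled Zip8 knockout. The cell with the most UMIs of each gene held 107 of the 108 Calca UMIs and 116 of the 116 Resp18 UMIs. It was 1 and the same cell for both genes, with 106885 UMIs in all, of which 40042 were of Scgb1a1 and 18 of Muc5b. The doublet score did not mark this barcode. In replicate 1 labelled Zip8 knockout, the cell with the most UMIs was likewise 1 cell for Clca1 (2431 of 4053 UMIs), Itln1 (2496 of 5113), Muc5ac (125 of 209), Retnla (3441 of 14414), and Muc5b (230 of 2169), and it held 74522 UMIs in all.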
